A study of Mus musculus with 18 samples.

Results

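Very wide H3K27ac domains of mouse liver were taken as the merged H3K27ac peak regions of at least 10000 bp that were called in all 6 H3K27ac libraries. Peaks of the 6 lists were merged where they shared at least 1 bp, on chromosomes 1 to 19 and X of build mm10. The rule gave 1979 domains out of 57342 merged regions, of which 22732 were called in all 6 libraries. Members were thus chosen by the H3K27ac peak calls themselves, so the width of a domain and its presence in every H3K27ac library describe how it was chosen and are not results. Members and gene groups are described by counts.

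The study compared livers of 8-week-old C57BL/6 mice that all carried floxed Ctcf alleles (CTCF fl/fl). Mice with the Cre transgene (Albcre+, called KO here) were set against mice without it (Albcre-, WT). The transgene is driven by the albumin promoter, which is active in hepatocytes, so other liver cells keep their Ctcf alleles, and the tissue was analysed whole. H3K27ac was profiled by ChIP-seq in 3 WT libraries (WT 1, WT 2, WT 4) and 3 KO libraries (KO 2, KO 3, KO 4). PPARg (WT 2, WT 4, KO 7, KO 8) and CTCF (WT164, WT165, KO160, KO163) had 2 libraries a genotype, and H3K4me3 and H3K27me3 had 1. The CTCF libraries and 3 of the 4 PPARg libraries were made by tagmentation from male mice fasted overnight. PPARg WT 4 and the histone libraries were made with a ligation kit, and their growth text describes neural stem cells although tissue and source are given as liver; their sex and feeding are not stated. Nothing states that libraries came from separate animals, so p-values measure only the spread between these libraries. The 6 hepatocyte markers Alb, Ttr, Apoa1, Hnf4a, Cebpa and Cps1 all met a domain, whereas none of 12 Kupffer cell and macrophage markers did.

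H3K27ac is the acetylation of lysine on the tail of histone H3 that marks active promoters and enhancers. Most H3K27ac regions are short, but some genes that define a cell type carry long stretches of it, where many enhancers and a promoter lie side by side and several transcription factors bind. PPARg is a nuclear receptor of fat storage that binds DNA together with RXR at direct repeats of a hexamer. CTCF is a zinc-finger protein that stops cohesin loops and so marks the borders of chromatin domains, and H3K4me3 marks active promoters.

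As examples picked because they hold a motif match, promoter sequences of 4 genes at domains are given, from the RefSeq promoter table of build GRCm38.p6. Each holds the 250 bases before the listed start, printed 5′ to 3′ on the strand of the gene. Capitals mark, in the first 3, a match on either strand to a relaxed direct repeat, the hexamer AGGNCA standing on both sides of 1 free base, and in the last one a match to the CTCF core. Fabp1 encodes the fatty acid binding protein of the liver, Apoc2 the activator of lipoprotein lipase, Pbld1 an epimerase-like protein and Khk ketohexokinase, the first enzyme of fructose breakdown.
Fabp1 (chr6:71199629-71199878, plus strand): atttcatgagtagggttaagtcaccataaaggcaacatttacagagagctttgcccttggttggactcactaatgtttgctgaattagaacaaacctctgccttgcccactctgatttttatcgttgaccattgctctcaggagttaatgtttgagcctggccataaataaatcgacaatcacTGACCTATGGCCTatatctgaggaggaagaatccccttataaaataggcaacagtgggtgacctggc
Apoc2 (chr7:19677942-19678191, minus strand): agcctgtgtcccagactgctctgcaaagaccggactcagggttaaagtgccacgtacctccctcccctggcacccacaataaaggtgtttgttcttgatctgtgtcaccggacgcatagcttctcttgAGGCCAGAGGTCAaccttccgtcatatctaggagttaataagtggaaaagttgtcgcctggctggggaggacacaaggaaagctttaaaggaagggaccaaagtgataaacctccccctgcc
Pbld1 (chr10:63061339-63061588, plus strand): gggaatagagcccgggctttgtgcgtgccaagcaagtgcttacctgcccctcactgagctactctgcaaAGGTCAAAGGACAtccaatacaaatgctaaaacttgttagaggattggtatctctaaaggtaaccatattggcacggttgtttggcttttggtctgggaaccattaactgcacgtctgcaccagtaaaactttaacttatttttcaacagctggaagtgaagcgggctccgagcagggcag
Khk (chr5:30921309-30921558, plus strand): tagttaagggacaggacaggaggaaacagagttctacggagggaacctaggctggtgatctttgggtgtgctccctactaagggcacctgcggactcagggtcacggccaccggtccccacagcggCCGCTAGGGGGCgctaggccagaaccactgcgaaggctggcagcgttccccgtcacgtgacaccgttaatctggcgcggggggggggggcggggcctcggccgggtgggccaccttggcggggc

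The match lay at positions -67 to -55 of Fabp1, -122 to -110 of Apoc2 and -181 to -169 of Pbld1, counted from the start. PPARg peaks covered all 3 promoters in all 4 libraries. The authors' fold enrichment of the peak over the Pbld1 promoter was 23.9 in WT 2, 17.1 in WT 4, 76.1 in KO 7 and 56.7 in KO 8. The WT lists gave 21.3 and 13.5 over the Fabp1 promoter, and the KO lists 33.5 and 30.5. The CTCF core of Khk lay at -124 to -113, and its CTCF peaks had fold values of 13.7 (WT164), 16.1 (WT165), 15.4 (KO160) and 14.3 (KO163). A fold value belongs to its own list, and values of different lists are given side by side without a test.

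Motif matches were rare in these promoters. The strict direct repeat, with the hexamer AGGTCA on both sides of 1 free base, searched on both strands from 250 bases before to 50 after each start, was found in 0 of the 1312 promoters that overlap a domain and in 10 of 21044 promoters in all. The relaxed form, chosen after the strict counts were seen, was found in 7 promoters at domains (0.534%) and in 75 of all (0.356%), and every strict match is also a relaxed one. The CTCF core was found in 22 promoters at domains (1.68%) and in 297 of all (1.41%). A match is a description of letters in this window. PPARg peaks overlapped far more promoters than held a match: 29.8% of the promoters at domains in WT 2, 25.7% in WT 4, 29.4% in KO 7 and 26.2% in KO 8, against 5.76% to 6.82% of all promoters. In the other H3K27ac regions the PPARg share of promoters was 9.67% to 11.3%. Promoters at domains had a median observed over expected CpG ratio of 0.645, below the 0.794 of promoters in other H3K27ac regions and above the 0.574 of all promoters.

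Small RNA genes in the domains are shown by their mature sequences, because several of them are known for the liver or for vessels. Of 1005 miRNA hairpins in the RefSeq table (GRCm38.p6), 49 (4.88%) overlapped a domain, in 39 domains. Capitals mark the seed, bases 2 to 8. let-7b and let-7c share their seed and lay in the same domain of 14200 bp, 24500 bp from the nearest coding gene, Ppara. miR-192 and miR-194 lay together in a domain at Atg2a (12575 bp), miR-21a in one at Vmp1 (27374 bp), miR-22 in one at Wdr81 (12849 bp), miR-126a in one at Egfl7 (23351 bp) and miR-10a in one at Hoxb3 and Hoxb4 (13513 bp).
let-7b-5p: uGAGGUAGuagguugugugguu
let-7c-5p: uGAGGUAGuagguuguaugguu
miR-192-5p: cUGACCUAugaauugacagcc
miR-194-5p: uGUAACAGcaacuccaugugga
miR-21a-5p: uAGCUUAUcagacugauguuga
miR-22-3p: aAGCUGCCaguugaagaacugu
miR-126a-3p: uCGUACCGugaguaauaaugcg
miR-10a-5p: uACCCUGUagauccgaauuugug

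The host domains of these miRNAs differed in PPARg. The Vmp1 domain had 3 PPARg sites in WT 2, 5 in WT 4, 6 in KO 7 and 8 in KO 8, and the Wdr81 domain had 3, 5, 4 and 4. The Egfl7 domain and the Hoxb3 and Hoxb4 domain had no PPARg site in any library. Egfl7, a secreted factor of endothelial cells, is the host gene of miR-126a.

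The 1979 domains ranged from 10003 to 115498 bp, with a median of 13613 bp and quartiles of 11406.5 and 17926.5 bp. Other regions called in all 6 libraries had a median of 3230 bp. The domains covered 32.1 Mb, 29.0% of the bases of all regions called in all 6 libraries, and 117 of them were at least 30 kb wide. The widest 6 lay at Mtss1 (115498 bp), a scaffold protein of membranes and actin, at Rxra (99859 bp), the partner receptor of the PPARs, at Shb (90497 bp), an adaptor of tyrosine kinases, at Zmiz1 (80752 bp), a transcriptional coactivator, at Tns1 (79138 bp), a protein of focal adhesions, and at Actn4 (64367 bp), which crosslinks actin. The seventh, of 59877 bp at Frmd8, spanned the long noncoding RNAs Malat1 and Neat1. The Mtss1 domain, chr15:58971670-59087167, lay inside the gene and held no listed start.

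Just above the width limit stood the domains at Coq8a (10016 bp), Zbtb20 (10011 bp), 1810055G02Rik (10009 bp), St3gal5 (10008 bp) and Bptf (10003 bp). Just below it, and not members, were regions at Prodh (9998 bp), Nfe2l2 (9997 bp), Ptger2 (9995 bp) and Ncoa3 (9990 bp). A further 4 merged regions reached the width but lacked a library. They lay at Slc8a1, near Usp24, at Arhgef17 and at the complement genes C1qc and C1qa, which macrophages express and which lacked a peak in KO 3.

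A RefSeq start lay inside 890 of the 1911 domains outside chromosome 18 (46.6%), for which no table of starts was used here. Another 766 (40.1%) lay in or across a gene without a listed start, and 255 (13.3%) lay between genes. Of 20114 regions under 10000 bp, by the same count, 33.5% held a start and 25.8% lay between genes. Spans of 1796 of 21627 protein-coding genes (8.30%) met a domain, and 241 genes met 2 or more. The transcriptional regulators Arid5b and Nfia, the kinase Jak1 and the death-associated kinase Dapk1 met 5 each. Only 8 domains lay on the X chromosome, 2.38% of its regions called in all 6 libraries. Neighbouring domains were separated by a median of 290 kb.

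Most lists of hepatocyte function had 45.0% or more of their members at a domain, against 8.30% of all protein-coding genes, with acute phase genes lower. The lists were chosen with earlier results of these data known, so their counts are descriptions. Of 20 hepatocyte transcription factors 16 met a domain, among them Hnf4a, Foxa1, Foxa2, Foxa3, Cebpa, Cebpb and Rxra. Of 27 secreted plasma proteins 20 did, among them Alb, Apoa1, the fibrinogen genes Fga, Fgb and Fgg, and Serpinc1 (antithrombin). Amino acid and urea metabolism had 12 of 18 (Cps1, Ass1, Asl and Arg1 of the urea cycle among them) and bile acid and cholesterol metabolism 13 of 21 (Cyp7a1, which starts bile acid synthesis from cholesterol, among them). Fatty acid oxidation and ketogenesis, and glucose and glycogen metabolism, each had 50% of their members at a domain (10 of 20 and 8 of 16), as did fatty acid synthesis and lipid droplets (13 of 26). The circadian clock and immediate early list had 14 of 24, with Per1, Per2, Cry2, Nr1d1 and Dbp.

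The other lists differed from these. Housekeeping genes had 2 of 16 (Actb and Rpl13a) and 13 genes of chromatin architecture had 0, Ctcf among them: its only H3K27ac region was 3651 bp wide. Acute phase genes, which inflammation induces, had 5 of 20. Endothelial markers had 7 of 12: Pecam1 and Eng, adhesion and TGF-beta receptors, Stab1 and Stab2, the scavenger receptors of sinusoids, Kdr, the VEGF receptor, Clec4g and the transcription factor Erg. Stellate cell markers had 2 of 12 (Dcn and Hand2), cholangiocyte markers 2 of 10 (the water channel Aqp1 among them) and lymphocyte markers 1 of 12 (Lck). In whole tissue, fewer cells of a type and less signal per cell cannot be told apart.

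**Figure D1:**
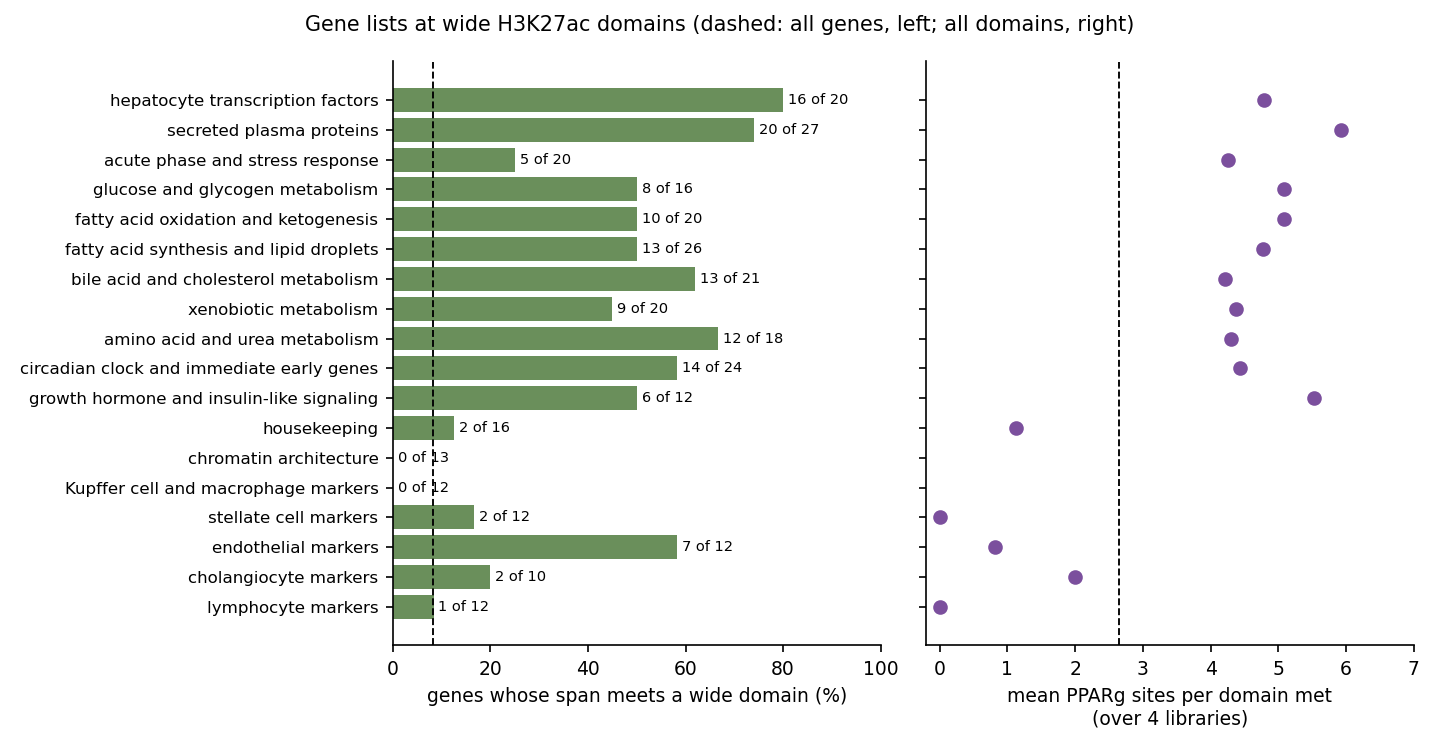
Left, percentage of the members of each gene list whose span met a wide domain, with counts beside the bars and a dashed line at the 8.30% of all protein-coding genes. Right, mean number of PPARg sites per domain met by each list, over 4 libraries, with a dashed line at the 2.65 of all domains; lists without a domain have no point. Endothelial markers met domains about as often as hepatocyte lists (58.3%), but those domains had 0.813 PPARg sites on average. Site numbers were not adjusted for domain width.

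PPARg occupied most domains. A PPARg peak overlapped 75.1% of the domains in WT 2, 75.2% in WT 4, 83.6% in KO 7 and 82.4% in KO 8. All 4 libraries had a site in 1393 domains (70.4%), and 277 domains (14.0%) had none in any library. The mean number of sites per domain was 2.12 in WT 2, 2.39 in WT 4, 3.13 in KO 7 and 2.96 in KO 8. Of each list's PPARg peaks, 27.1% (WT 2), 28.5% (WT 4), 22.6% (KO 7) and 22.2% (KO 8) lay in a domain.

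The domains were more densely occupied than shorter H3K27ac regions in every PPARg library. Per 10 kb of domain there were 1.31 sites in WT 2, 1.48 in WT 4, 1.93 in KO 7 and 1.82 in KO 8. Regions under 10000 bp had 1.14, 1.19, 1.75 and 1.68. The difference averaged 0.195 sites per 10 kb and had the same sign in 4 of 4 libraries (two-sided exact sign-flip permutation test, p = 0.125, the smallest that 4 libraries allow). CTCF had the opposite order: 0.335 and 0.309 sites per 10 kb of domain in WT164 and WT165 and 0.227 and 0.242 in KO160 and KO163, against 0.498, 0.440, 0.357 and 0.372 in regions under 10000 bp (lower in 4 of 4 libraries, p = 0.125 by the same exact test). Against regions of 5 to 10 kb alone the CTCF difference was smaller, -0.028 sites per 10 kb on average. A peak counts where it overlaps by 1 bp, which by itself raises the density of short regions. Counted by midpoints, the domains had 0.312 (WT164), 0.291 (WT165), 0.213 (KO160) and 0.222 (KO163) CTCF sites per 10 kb. Regions of 5 to 10 kb then had 0.330, 0.297, 0.229 and 0.235.

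**Figure D2:**
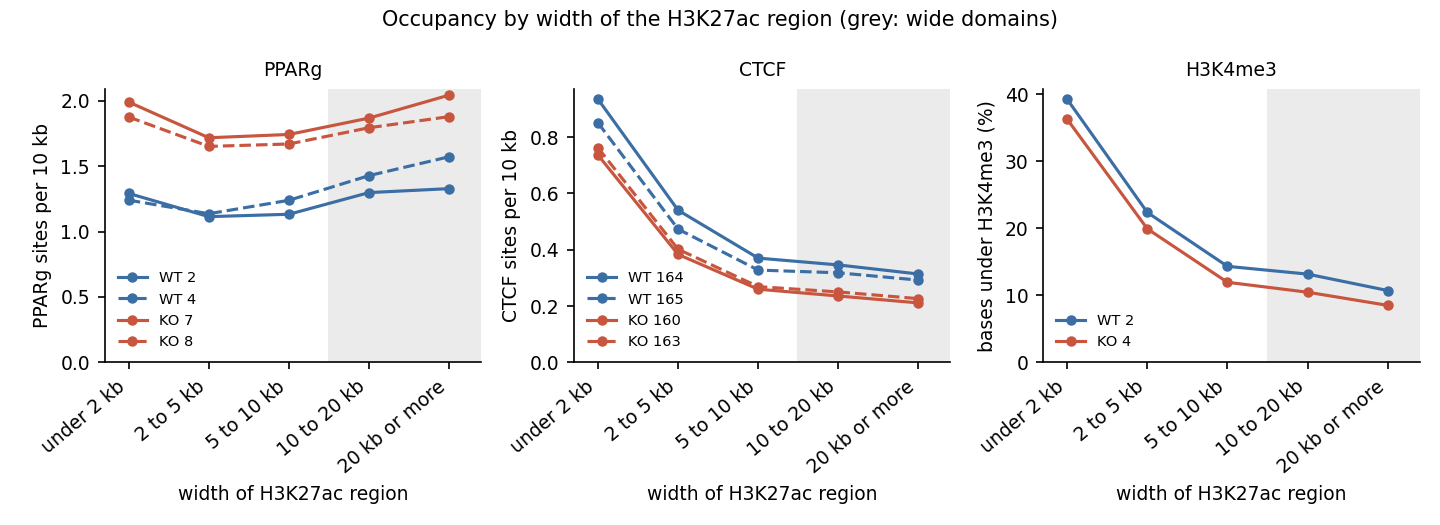
PPARg and CTCF sites per 10 kb, and percentage of bases under H3K4me3 peaks, for regions called in all 6 H3K27ac libraries by width class (horizontal axis, grey for the wide domains); each line is 1 library, blue for WT and red for KO. Sites were counted by an overlap of at least 1 bp, which by itself raises the density of short regions. CTCF density was 0.736 to 0.935 per 10 kb in regions under 2 kb and 0.211 to 0.314 in domains of 20 kb or more. PPARg density in the domains was above that of both classes from 2 to 10 kb in every library, but in KO 7 and KO 8 it was below the 1.99 and 1.88 of regions under 2 kb.

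Hepatocyte genes and endothelial genes differed in PPARg. The domains met by the 11 lists of hepatocyte function had 4.21 to 5.93 PPARg sites on average over the 4 libraries, above the 2.65 of all domains, and 1 of the domains in those lists had no site in any library, counted list by list. Their median width was 15079 to 20878 bp by list, against 13613 bp for all domains, and site numbers were not adjusted for width. The 8 domains of endothelial markers, with a median width of 13440 bp, had 0.813 sites, and 4 of them had none in any library. Both stellate cell domains and the Lck domain had none. Stab2, which had 4, 5, 5 and 5 sites in WT 2, WT 4, KO 7 and KO 8, was the 1 endothelial domain with a site in all 4 libraries.

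Domains with most PPARg sites were also among the widest. The Mtss1 domain had 13 sites in WT 2, 16 in WT 4, 22 in KO 7 and 20 in KO 8. Zmiz1 had 16, 16, 16 and 17, Shb 13, 15, 17 and 14, and Slc38a4, which encodes an amino acid transporter, 12, 13, 17 and 20. Wider domains held more sites (Spearman's rho = 0.439 over 1979 domains, a description, since a wider region holds more sites). The widest domain without a PPARg site in any library lay at Igfbp7 (54167 bp), which encodes a secreted protein that binds insulin-like growth factors. Next came Ehd3 (43827 bp), a membrane-trafficking ATPase, a region at Stk40, Eva1b and Sh3d21 (31755 bp), Zeb2 (30977 bp), a transcriptional repressor, and Ptprb (27721 bp), the phosphatase VE-PTP of endothelial cells.

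As called, PPARg sites were more numerous in KO, both in the domains and in regions under 10000 bp. In the domains this order depended on the length of the lists. KO libraries had 3.04 ± 0.119 sites per domain (SD, n = 2) and WT libraries 2.26 ± 0.192 (SD, n = 2), a ratio of 1.35 without overlap (two-sided exact permutation test, p = 0.3333, the smallest that 2 against 2 allow). The KO lists were longer, with 27431 and 26345 peaks against 15514 and 16612, and when all lists were shortened to the same number of best peaks the order turned to 1.87 in KO and 2.19 in WT. Of the 3001 sites in domains that both WT libraries had, 92.7% were called in all 4 libraries, and of the 4395 that both KO libraries had, 975 (22.2%) were in neither WT list. In regions under 10000 bp that share was 24.3%, and outside the H3K27ac regions called in all 6 libraries it was 52.7%.

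The share of a domain under PPARg peaks was fitted with limma over 12828 regions. It was higher in KO in 560 of 1702 domains that could be tested (32.9%) and lower in 0, at a Benjamini-Hochberg adjusted p under 0.05. Over all regions 33.0% were higher and 0.390% lower, so the domains' count is that of the background and is no result about them. Unadjusted p values under 0.05 went with a higher share in 930 domains and a lower one in 1 (49.8% and 0.842% of all regions). Both KO values lay above both WT values in 1446 tested domains and below them in 19 (68.6% and 2.02% of all regions). The calls needed both WT libraries: without WT 2, or without WT 4, which came from another kit, no domain passed. The median difference was 10.4 percentage points in domains and 12.1 over all regions.

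Named domains show its size. At Eci2, an isomerase of fatty acid oxidation, PPARg peaks covered 18.3% of the domain in WT 2, 16.9% in WT 4, 63.9% in KO 7 and 64.6% in KO 8. The rise of 46.7 percentage points (SE 4.35) had a limma adjusted p of 0.0263, or 0.157 without WT 2 and 0.187 without WT 4. Both KO values lay far above both WT values, and the highest authors' fold in the domain was 66.9 (WT 2), 37.1 (WT 4), 246 (KO 7) and 213 (KO 8).

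The other 4 largest rises had the same order of libraries. At Insig2, a protein of the endoplasmic reticulum that restrains cholesterol synthesis, peaks covered 25.5% (WT 2), 16.1% (WT 4), 70.4% (KO 7) and 68.3% (KO 8) (limma adjusted p = 0.0263, or 0.081 to 0.187 with a library left out). At Aldh3a2, which oxidises fatty aldehydes, it was 31.0% and 18.6% against 63.6% and 81.4% (limma adjusted p = 0.0304, or 0.0927 to 0.196 with a library left out). At Chd1l and Fmo5 it was 13.3% and 14.8% against 64.3% and 56.7%, and at a domain 12098 bp from Adam24 it was 23.5% and 20.6% against 76.8% and 65.5%, both with a limma adjusted p of 0.0263, or 0.157 and 0.187 without WT 2 and without WT 4. The genotypes did not overlap in these 5 domains, which were picked for the size of the rise. Both KO values also lay above both WT values in 68.6% of all tested regions.

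Read against the 33.0% of all regions, the lists varied in both directions. Peroxisomal and mitochondrial fat oxidation had 7 of its 9 tested domains among the calls, amino acid and urea metabolism 12 of 14, xenobiotic metabolism 7 of 10, plasma proteins 10 of 18, the clock and immediate early list 3 of 15 and glucose metabolism 1 of 9. All of these calls, too, were lost without WT 2 or without WT 4. Ehhadh, the bifunctional enzyme of peroxisomes, had a large share under PPARg: 51.9% in WT 2, 37.9% in WT 4, 79.2% in KO 7 and 81.5% in KO 8 (limma adjusted p = 0.0356). At the Cpt1a domain, the gate of mitochondrial oxidation, the values were 26.1%, 18.6%, 40.6% and 41.7% (limma adjusted p = 0.0458). The urea cycle gene Cps1 had 0% in WT 2, 1.71% in WT 4, 12.8% in KO 7 and 11.3% in KO 8 (limma adjusted p = 0.036).

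Not every hepatocyte domain followed this order. At Foxa2, a pioneer factor of the liver, the share was 16.2% in WT 2, 3.80% in WT 4, 3.65% in KO 7 and 1.33% in KO 8, and the difference did not pass (limma adjusted p = 0.288). The Pparg gene itself met 1 domain, of 10067 bp, with 5.86% and 9.04% in WT and 20.6% and 33.2% in KO (limma adjusted p = 0.0572). Kdr had a site only in KO 7, covering 1.33%. Hand2 and Dcn had none.

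**Figure D3:**
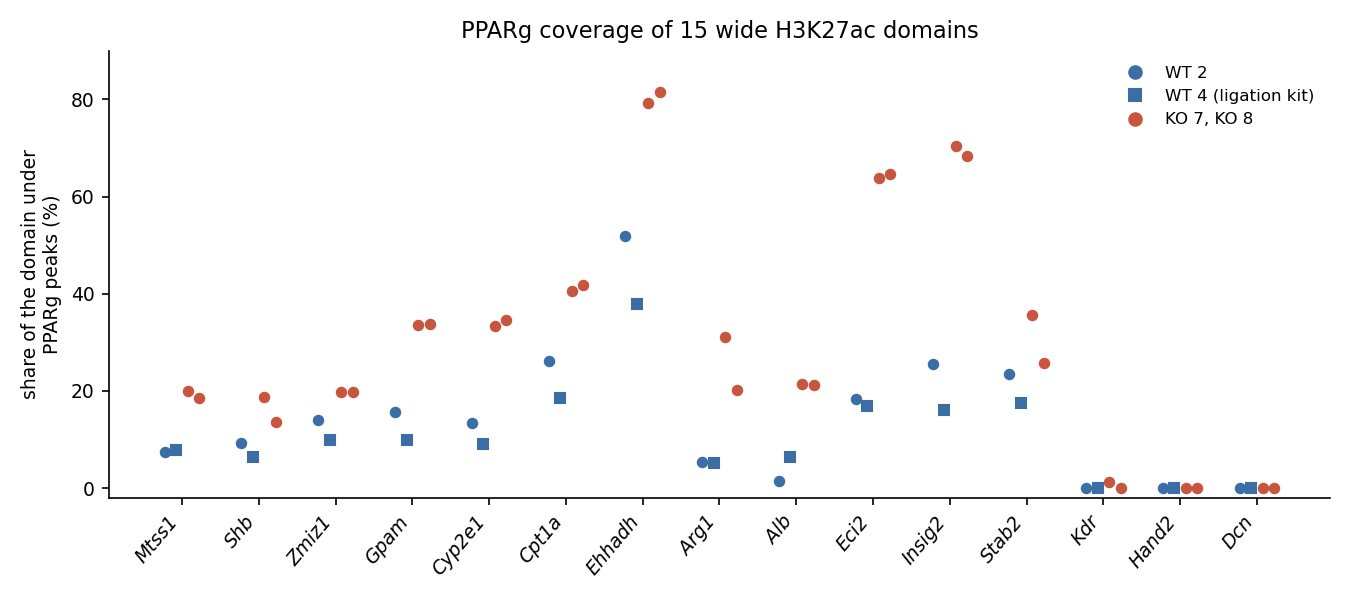
Percentage of each of 15 named domains under PPARg peaks (vertical axis), 1 point per library: blue circles WT 2, blue squares WT 4 (ligation kit), red circles KO 7 and KO 8. From Mtss1 to Stab2 both KO points lie above both WT points at each domain; Ehhadh has the highest coverage, 79.2% and 81.5% in KO, and Kdr, Hand2 and Dcn are at or near 0.

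CTCF sites were fewer in the domains than PPARg sites. A CTCF peak overlapped 39.2% of the domains in WT164, 37.0% in WT165, 29.4% in KO160 and 31.0% in KO163. All 4 libraries had a site in 520 domains (26.3%), and 1136 (57.4%) had none in any. Libraries of KO had 0.381 ± 0.0168 sites per domain (SD, n = 2) and those of WT 0.523 ± 0.0297 (SD, n = 2), without overlap (ratio 0.728, two-sided exact permutation test, p = 0.3333, the smallest possible). The KO lists were shorter, with 18597 and 20323 peaks against 27580 and 24565, and with lists of equal length the means were 0.368 in KO and 0.367 in WT.

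Most CTCF sites in domains were called in KO as well. Of 892 sites in domains that both WT libraries had, 76.3% were called in KO160 and 79.3% in KO163, and 131 (14.7%) in neither. In regions under 10000 bp the share called in neither was 11.2%. The deletion acts in hepatocytes, and the part of other cells in the remaining sites was not tested.

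The limma fit of the CTCF covered share called 0 of 843 tested domains higher and 0 lower (at an unadjusted p under 0.05, 2 higher and 46 lower, against 0.822% and 10.6% over 4747 regions). Without WT164 the fit called 14.0% of the tested domains lower, and without WT165 it called 19.3% lower and 1 domain higher, near the 14.5% and 20.1% of all regions called lower in those fits, with the spread then set by the KO pair and the lone WT library assumed to vary like it. In 33.0% of the tested domains both KO values lay under both WT values, where 28.0% of all regions did, and in 54 (6.41%) both lay above, where 7.39% of all regions did.

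The largest falls without overlap were at domains near Prox1 and Il17b and at Ssbp3, Inhbe and Inhbc, and Ehhadh. Ehhadh had 3 sites in WT164, 3 in WT165 and none in KO160 or KO163. The covered shares were 7.27%, 4.60%, 0% and 0% of the domain (limma adjusted p = 0.237). Both KO values were 0%, so a fit with 1 WT library left has no spread between libraries at this domain. Ssbp3, a partner of the LDB1 looping protein, had 2, 2, 0 and 1 sites. The domain of Inhbe and Inhbc, activin subunits made in liver, had 3, 3, 1 and 0. Nr2f2, which encodes the nuclear receptor COUP-TFII, had 2 sites in each WT library and none in KO (limma adjusted p = 0.479).

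The domains with most CTCF sites held several in every library. The domain of Malat1 and Neat1 at Frmd8 had 4, 4, 5 and 4 sites in WT164, WT165, KO160 and KO163, the Asl domain 4, 4, 3 and 4, and a domain of 36410 bp at Hnf4a and Ttpal 6, 5, 4 and 5. Bcl6, a transcriptional repressor that growth hormone signalling controls in liver, had 5, 4, 3 and 5. The widest domains without a CTCF site in any library were Shb, Actn4, Plpp3 (56443 bp), Zbtb16 (53189 bp) and Slc38a4.

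CTCF and PPARg sat at different places in the domains. Each domain was divided by distance from its centre into 5 classes of equal length, and the outermost class joins both edges. It held 32.3% of the CTCF midpoints inside domains in WT164, 32.9% in WT165, 36.5% in KO160 and 35.5% in KO163. In regions of 5 to 10 kb the outermost class held 26.1% to 28.0% (higher in domains in 4 of 4 libraries, exact sign-flip permutation test, p = 0.125, the smallest possible). PPARg midpoints were rarest at the edges, with 10.0% in WT 2, 9.71% in WT 4, 12.3% in KO 7 and 12.5% in KO 8, though the share was above that of regions of 5 to 10 kb (3.36%, 4.21%, 7.77% and 7.38%). H3K4me3 midpoints had 12.4% and 13.1% there.

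**Figure D4:**
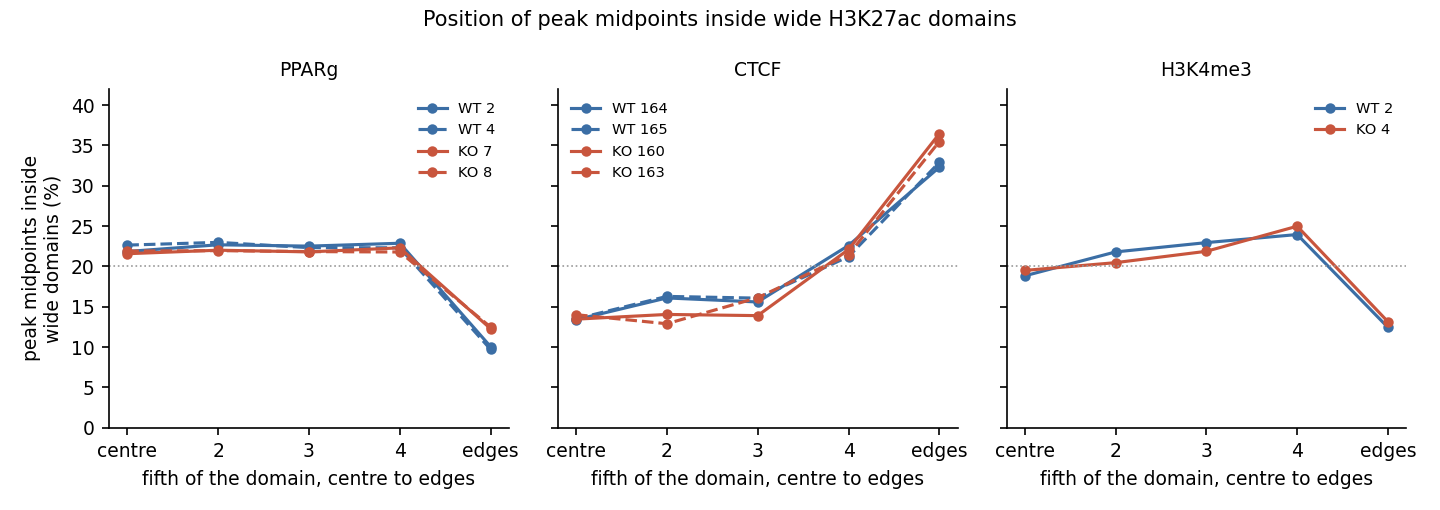
Percentage of PPARg, CTCF and H3K4me3 peak midpoints inside the wide domains (vertical axis) in 5 classes of equal length from the centre of the domain to its edges (horizontal axis), 1 line per library, blue for WT and red for KO; the dotted line is an even spread. CTCF is highest at the edges, at 32.3% to 36.5%, and PPARg lowest there, at 9.71% to 12.5%.

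On average over domains H3K27ac covered most of a domain in every library, but to an extent that differed by library. The share was under 50% in 134 domains in WT 1, 94 in WT 2, 207 in WT 4, 149 in KO 2, 62 in KO 3 and 4 in KO 4. The mean covered share was 76.4% in WT 1, 81.8% in WT 2, 74.4% in WT 4, 73.2% in KO 2, 79.0% in KO 3 and 92.5% in KO 4. KO 4, whose list held 51299 peaks against 34315 to 40532 in the others, was the most covered library in 1217 domains (61.5%) and had 1 unbroken peak in 63.3% of domains, against 29.9% to 38.0% in the others. A median of 58.7% of a domain was covered in all 6 libraries, and 645 domains had at least 10000 bp so covered.

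The H3K27ac shares come from the peaks that chose the domains, so the tests given here describe these libraries and decide nothing about the domains. Libraries of the genotypes overlapped in the mean share: 81.6% ± 9.89 in KO and 77.6% ± 3.83 in WT (SD, n = 3 each, two-sided exact permutation test, p = 0.7). The difference of 4.01 points turned to -1.45 without KO 4 and to -6.86 when each library was divided by its total covered length. limma called 0 of 1979 domains higher and 0 lower, as over all 22732 regions, and at an unadjusted p under 0.05 there were 38 higher and 23 lower (4.21% and 1.35% of all regions).

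In 187 domains (9.45%) all KO libraries had a higher share than all WT libraries, and in 76 (3.84%) all had a lower one. Over all regions these shares were 9.88% and 2.86%. Divided by total covered length, 90 domains were higher (4.55%, against 5.35% of all regions) and 295 lower (14.9%, against 10.6%). Without KO 4, 190 were higher (9.601%, against 10.5%) and 329 lower (16.6%, against 12.9%). The 5 largest rises and falls without overlap are given as values, since none passed the test.

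At Plvap, which encodes the diaphragm protein of endothelial fenestrae, the share was 23.6%, 23.6% and 33.7% in WT 1, WT 2 and WT 4 and 39.4%, 79.8% and 97.9% in KO 2, KO 3 and KO 4. Tnip1, a brake on NF-kappaB signalling, had 42.2%, 44.8% and 32.6% in WT and 83.5%, 87.4% and 89.8% in KO. Plxna1, a semaphorin receptor, had 49.3%, 35.0% and 20.3% against 70.3%, 82.2% and 88.4%. KO 4 was the highest in all 3, and at Tnip1 the KO libraries lay close together. The remaining 2 lay between genes, 48014 bp from Hs1bp3 and 11828 bp from Rbbp8nl. None of the 5 had a PPARg site in any library.

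Of the 5 largest falls, Lhpp, a phosphatase gene, had 87.5%, 100% and 95.9% in WT and 36.3%, 50.3% and 30.7% in KO (-55.4 points, SE 16.6, limma adjusted p = 0.839). Tiam2, an activator of Rac, had 90.14%, 97.07% and 89.98% against 47.7%, 39.2% and 51.0%. Mup11, of the major urinary proteins, had 49.2%, 78.5% and 100% against 27.8%, 32.4% and 41.1%, and near-identical gene copies share reads there, so its values are uncertain. The other 2 lay 1652 bp from Paqr9 and 19977 bp from Dhrs7. All 5 had PPARg sites in both WT libraries, and the one near Dhrs7 had none in KO. Divided by total covered length, Lhpp and Tiam2 were the 2 domains that passed (limma adjusted p = 0.00493 and 0.0185), or 0.101% of domains, where 0.136% of all regions passed.

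This led to a comparison, made after these values were seen, of domains by their PPARg sites, which the rule for the domains did not use. The H3K27ac shares compared come from the peaks that chose the domains, so the values are a description, with no test. The 277 domains without PPARg in any library had a mean H3K27ac share of 64.0% in WT 1, 64.6% in WT 2, 54.8% in WT 4, 63.7% in KO 2, 73.4% in KO 3 and 96.2% in KO 4. The 1393 with PPARg in all 4 libraries had 80.5%, 86.5%, 79.8%, 76.2%, 81.0% and 91.5%. As called, the KO mean exceeded the WT mean by 16.6 points in the first class and by 0.657 points in the second. The genotypes overlapped in both classes, and in the first KO 2 lay below WT 1 and WT 2. Without KO 4 the differences were 7.42 points in the first class and -3.65 in the second. After division by total covered length they were 6.44 and -10.4 points.

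Taken library by library, domains without PPARg differed from those with it by -16.5 points in WT 1, -21.9 in WT 2, -24.99 in WT 4, -12.5 in KO 2, -7.65 in KO 3 and 4.68 in KO 4. The KO mean lay 15.99 points above the WT mean, or 11.1 points when KO 4 was left out and 16.8 points after division by total covered length. When the domains themselves were rebuilt without KO 4, 152 of 1628 (9.34%) had no PPARg site, in place of 14.0%. In those the values were -6.99 points in WT 1, -12.1 in WT 2, -15.95 in WT 4, -3.68 in KO 2 and 1.59 in KO 3, a difference of 10.6 points between the genotypes. In regions under 10000 bp the difference was 9.28 points.

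**Figure D5:**
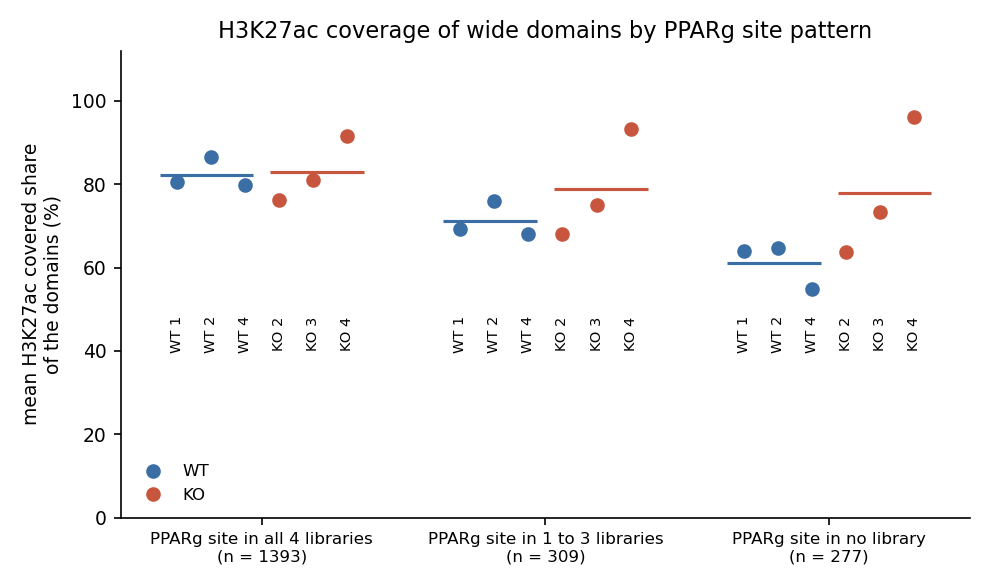
Mean percentage of the domains covered by H3K27ac peaks (vertical axis) for domains with PPARg sites in all 4 libraries, in 1 to 3 and in none; points are libraries, blue WT and red KO, and lines are the means of 3. WT means are 82.3%, 71.1% and 61.1% from left to right and KO means are 82.9%, 78.9% and 77.8%; KO 4 is the highest point in each class.

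The 8 domains of endothelial markers had a median H3K27ac difference, KO minus WT, of 5.56 points. The 2 of stellate cells had 16.2 points and the Lck domain 12.2 points. The median was 2.67 points over all domains and 5.73 points over all 22732 regions, so the endothelial value lay near that of all regions. In none of these 11 domains did the genotypes separate. Igfbp7 and Egfl7 are outside these lists and were named above for width and a miRNA. Igfbp7 had 73.3%, 74.0% and 57.2% in WT and 77.0%, 92.2% and 97.0% in KO. Egfl7 had 90.8%, 86.0% and 83.0% against 93.0%, 91.9% and 100%. Other domains without PPARg sites that were named for their width or a miRNA, at Ehd3, Stk40, Zeb2, Ptprb and Hoxb3, had overlapping genotypes. The part of a shift in cell types in these values was not tested.

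H3K4me3 was present in most domains, and the widest peak of a domain was wider than that of shorter regions, but a smaller share of bases lay under it. A peak overlapped 1280 domains (64.7%) in WT 2 and 1226 (62.0%) in KO 4, and 676 domains (34.2%) had none in either library. Domains with a listed start had one in 95.2% of cases in each library, and domains between genes in 32.9% and 26.3%. The widest H3K4me3 peak of a domain had a median of 2286 bp in WT 2 and 1825.5 bp in KO 4, against 1595 and 1411 bp in regions under 10000 bp. A domain held more peaks to take the widest from, 1.31 and 1.37 on average against 0.551 and 0.559. H3K4me3 peaks covered 12.4% (WT 2) and 9.81% (KO 4) of the bases of domains, against 20.2% and 17.7% in regions under 10000 bp.

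With 1 library per genotype the following differences have no replicate check. H3K4me3 peaks covered 2003.5 bp of a domain on average in WT 2 and 1591.6 bp in KO 4, a ratio of 0.794, where the whole lists had a ratio of 0.879 in covered length. A peak of 4000 bp or more overlapped 179 domains in WT 2 (9.045%) and 60 in KO 4 (3.03%). Among regions under 10000 bp it overlapped 99 in WT 2 (0.477%) and 27 in KO 4 (0.130%), so the lower number was not particular to the domains. Peaks of the whole lists had a median width of 1214 bp in WT 2 and 995 bp in KO 4. Of the named domains, the widest single peak lay at Tnrc18, with 10576 bp in WT 2 and 9971 bp in KO 4. The Malat1 and Neat1 domain had most H3K4me3 in all, 15657 and 12849 bp, followed by Nr2f2 (12986 and 11291 bp) and by the cluster of Apoe, Apoc1, Apoc4, Apoc2, Clptm1 and Tomm40 (12763 and 9794 bp). Slc38a4 had 10007 bp in WT 2 and 6400 bp in KO 4, and Cyp7a1 4144 and 1533 bp. The widest domains without H3K4me3 in either library lay 60313 bp from Ptpn1, at Zbtb16, 40706 bp from Tomm20, and at Pitpnm2 and Insr.

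H3K27me3, the mark of Polycomb repression, overlapped 28 domains in WT156 (1.41%) and 29 in KO150 (1.47%), against 0.679% and 0.612% of regions under 10000 bp, which are shorter. At a -log10 q of at least 2 only 4 and 9 domains had it. Of the 38 domains with it in either library, 31 were among the 277 without any PPARg site, and at the stricter limit 10 of 11 were. Hand2, a transcription factor of stellate cells and of the embryonic heart, had 4 and 5 H3K27me3 peaks beside H3K4me3 of 3149 and 4437 bp, and Plvap had 2 and 2. At the stricter limit Hand2 had 0 and 2, and Plvap 0 and 1. Whether both marks lay in the same cells cannot be told apart in whole tissue.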

How the data were processed

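Peak lists of 18 ChIP-seq libraries of mouse liver were used. Per the submitters' processing notes, BWA 0.7.12, Picard 1.77, MACS2 2.1.2, deepTools 3.1.3 and build mm10 were used. The control used for peak calling is not given in the sources used here. The deposited lists hold 1 row per peak with a fold enrichment (a ratio) and -log10 p and q as the authors' caller wrote them. The deposited score column was not used. Peaks were called per library, and the lists hold no read counts, so depth is unknown. The lists held 34315 to 51299 H3K27ac, 15514 to 27431 PPARg and 18597 to 27580 CTCF peaks. The 4 PPARg lists were not called to 1 limit: the lowest -log10 q was 1.31 in WT 4 and 3.00 or 3.01 in the others.

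The covered share is the percentage of a domain's bases under a library's peaks, and a site is a peak that overlaps the domain by at least 1 bp. KO and WT were compared by exact permutation of libraries and, over all regions with any signal and variation, by limma 3.58.1 in R 4.3.3 with Benjamini-Hochberg adjustment at 0.05. Other steps used Python 3.11.15, numpy 2.4.6, pandas 2.3.3 and scipy 1.17.1. Scripts were tested on simulated data. Named domains were the 12 widest, the 5 on either side of the width limit, the 5 with most sites of each factor or most H3K4me3, the 5 largest H3K27ac rises and falls and CTCF falls without overlap, the 5 largest PPARg rises past the threshold, up to 4 members per gene list, and those of Ctcf and Pparg. The miRNA and promoter domains, and the widest ones without a factor, were chosen after values were seen. Results of some named genes are not reported here. The members and lists were chosen with earlier results of these data known. Replicate numbers 2 and 4 occur in both H3K27ac groups, but deviations of same-numbered libraries correlated at -0.0445 and -0.168, so they were not treated as pairs. Gene names, promoters and miRNAs came from RefSeq tables (GRCm38.p6).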

Additional observations from a re-analysis of the deposited data

How the results depend on the processing

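Of 104 alternative values of the main results, 84 counted as kept, 15 moved and 5 reversed. Kept means the same direction and side of the threshold, or a value close to the reported one. For means of libraries the exact permutation p could not fall under 0.05, so those values could change only in direction. No setting called a domain higher in H3K27ac by limma, and those values count as kept too. The H3K27ac difference in mean covered share reversed to -6.86 points when divided by total covered length, to -1.45 without KO 4 and to -2.51 with domains rebuilt without KO 4 (replicates left out in turn, -1.45 to 8.20). With the replicate block, over numbers 2 and 4, it was 4.70 (exact permutation p = 1). With lists of equal length the PPARg difference reversed to -0.327 sites per domain and that of CTCF to 0.000758. Domains with PPARg higher in KO by limma numbered 344 at a -log10 q of at least 10, 158 with lists of equal length and 0 to 479 with a library left out, and those lower 0 to 2. With a CTCF library left out, 0% to 19.3% of the tested domains were lower by limma and 0% to 0.124% higher. Division by total covered length called 2 domains lower in H3K27ac. Requiring 10000 bp in every library left 645 domains. The H3K4me3 difference, -412 bp as called, was -473 bp at a -log10 q of at least 10 and -396 bp with peaks joined across 1000 bp, and 4 and 9 domains had H3K27me3 at a -log10 q of at least 2. Of 168 values for named domains, 149 stayed the same, 14 were weaker, all for PPARg, 4 were stronger, and CTCF at Inhbe and Inhbc reversed to 1.15 at a -log10 q of at least 10. The causes were not tested. Depth is unknown, so what it limits cannot be given.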
